A study of Mus musculus with 9 samples.

Results

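Kit, Flt3, Tek, Cd34, Procr, Ly6a, Slamf1 and Cd48 encode the surface receptors and markers by which haematopoietic stem and early progenitor cells are sorted and subdivided, and their chromatin was described here in 9 ATAC-seq libraries of mouse LSK cells. A peak was assigned to one of these genes when its summit lay inside the GRCm38 span of the gene, or within 50 kb of it with that gene as the nearest protein-coding one. The rule found 211 of the 328883 deposited peaks, in 54 of 76253 regions, for 8 of 21896 protein-coding genes. A region is a set of peaks of the 9 lists joined by at least 1 shared bp.

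ATAC-seq maps open chromatin by inserting adapters with the Tn5 transposase. The groups were Bcat_KO (tagged as beta-catenin knockdown, n = 2), HOXA9_KO (tagged HOXA9 knockdown, n = 2), PRMT1_KO (tagged PRMT1 knockdown, n = 2), dKO (tagged beta-catenin/Hoxa9 knockdown, n = 1) and WT (n = 2). All groups were LSK cells, that is lineage-negative, Sca-1-positive and Kit-positive cells, with 50000 cells per library. Titles write KO where the genotype tags write knockdown. The series text speaks of transplanted Prmt1KO mice only, and how the genes were targeted and the age and sex of the animals are not given in the sources used here. Nor is it stated that replicates are separate mice; the spread that p-values measure may therefore be technical.

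Kit, Flt3 and Tek are receptor tyrosine kinases: Kit binds stem cell factor and is required by stem cells, Flt3 binds FLT3 ligand and marks multipotent progenitors that have begun to lose self-renewal, and Tek (Tie2) binds angiopoietins on stem and endothelial cells. Cd34 is a sialomucin that is low on long-term stem cells of adult mice and higher on progenitors. Procr (EPCR) and Slamf1 (CD150) mark stem cells, Cd48 marks progenitors, and Ly6a encodes Sca-1, the antigen that puts the S into LSK. Open chromatin at a promoter or enhancer usually accompanies use of the gene, but an ATAC-seq peak measures neither RNA nor surface protein.

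The 250 bases before the start are shown for 4 of these genes, from RefSeq with the GRCm38.p6 build, 5′ to 3′ on the strand of the gene. Flt3 and Cd34 are shown because regions at both changed in rank, Kit because its start had a peak in 8 libraries without a change that passed the test, and Slamf1 because its start had a peak in only 2 libraries. Capitals mark matches to the motifs searched.
Kit, chr5:75574737-75574986, plus strand, no match: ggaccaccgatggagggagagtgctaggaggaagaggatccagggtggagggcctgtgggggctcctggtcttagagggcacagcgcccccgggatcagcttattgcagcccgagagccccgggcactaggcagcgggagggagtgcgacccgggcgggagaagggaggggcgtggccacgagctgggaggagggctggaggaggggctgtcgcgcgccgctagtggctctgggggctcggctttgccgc
Flt3, chr5:147400490-147400739, minus strand, E-box and TCF/LEF matches: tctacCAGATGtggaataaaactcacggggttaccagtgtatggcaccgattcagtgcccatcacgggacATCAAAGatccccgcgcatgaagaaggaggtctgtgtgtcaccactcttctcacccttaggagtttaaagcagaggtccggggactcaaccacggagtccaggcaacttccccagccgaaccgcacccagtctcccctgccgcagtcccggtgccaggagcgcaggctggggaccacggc
Cd34, chr1:194938571-194938820, plus strand, no match: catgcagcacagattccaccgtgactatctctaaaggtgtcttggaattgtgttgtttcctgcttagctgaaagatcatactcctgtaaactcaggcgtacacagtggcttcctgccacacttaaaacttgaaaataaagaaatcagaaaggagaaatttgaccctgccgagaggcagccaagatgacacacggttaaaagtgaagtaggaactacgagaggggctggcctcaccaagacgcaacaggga
Slamf1, chr1:171766882-171767131, plus strand, no match: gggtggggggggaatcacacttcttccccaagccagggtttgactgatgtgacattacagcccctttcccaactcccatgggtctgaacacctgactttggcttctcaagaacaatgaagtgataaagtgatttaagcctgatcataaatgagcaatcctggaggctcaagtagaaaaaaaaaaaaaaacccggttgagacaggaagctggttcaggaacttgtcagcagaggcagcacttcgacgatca
The table held promoters for 7 of the 8 genes. Both strands were searched for the GATA motif (AGATAA), 2 ETS motifs (CCGGAAG and also GAGGAAGT), and those of RUNX (TGTGGT), E-box (CAGATG), TCF/LEF (CTTTGAT), HOXA9 with PBX or MEIS (TGATTTAT), AP-1 (TGANTCA) and MYB (TAACGG). In Flt3, CAGATG lay 245 to 240 bases before the start, a motif present in 14.4% of 32851 promoters of the same length. The other Flt3 match was CTTTGAT, read here on the other strand as ATCAAAG, 180 to 174 bases before the start, in 3.21% of all promoters. Procr held TGACTCA 154 to 148 bases before its start (TGANTCA, 6.75% of all promoters), and Cd48 held TGTGGT 76 to 71 bases before it (14.0%). No 2 of these matches overlapped. Kit, Cd34, Slamf1 and Tek held none. The motifs with no match in any of the 7 genes were present in 9.99% (AGATAA), 6.91% (CCGGAAG), 2.44% (GAGGAAGT), 0.837% (TGATTTAT) and 2.18% (TAACGG) of all promoters. The Kit promoter was the richest in G and C of the 7, at 70.8%, against a median of 52.4% over all promoters, and that of Cd48 the poorest, at 46%.

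The lists differed in depth, and depth and genotype moved together. The background recovered from fold and p was 11.2 and 10.9 reads per kb in PRMT1_KO, 9.61 and 9.82 in Bcat_KO, 8.27 and 8.67 in HOXA9_KO, 2.41 in the dKO, and 7.38 and 6.29 in WT. Summits of peaks rested on at least 6 reads in 6 of the 8 paired libraries, 7 in both PRMT1_KO libraries and 4 in the dKO, so a region without a peak was not detectable at that depth and need not be closed. On chromosome Y below 90 Mb there were 12 to 16 peaks in each single-mutant library, 6 in the dKO and 0 in both WT libraries, so the sex of the animals and genotype cannot be told apart in the comparisons with WT. Among 14 lineage genes whose cells an LSK sort removes, 11 had no start-site peak in any library. Of the other 3, Adgre1 had one in 5 libraries, Itgam in 3 and Hbb-bs in 2. The number of these markers with a peak was 2 and 1 in the PRMT1_KO libraries, 2 in both Bcat_KO libraries, 0 and 1 in HOXA9_KO, 0 in the dKO, and 2 and 0 in WT.

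The start of Flt3 and that of Cd34 had a peak in all 9 libraries, and that of Kit in 8. A start-site peak, within 1 kb of an annotated start, was found in 7 libraries for Tek, 5 for Cd48, 3 for Procr and 2 for Slamf1. Ly6a, although its product defines the sort, had no peak at its start or inside its span in any library. Most peaks of the 8 genes lay elsewhere: 54 of 211 (25.6%) were at a start site, 80 (37.9%) in the gene body, 49 (23.2%) downstream, 24 (11.4%) upstream and 4 outside Ly6a. Over all assigned peaks of the series, 32.6% lay within 1 kb of a start. Of the 54 regions, counting only peaks assigned to these genes, 12 had a peak in all 8 paired libraries, of which 3 had one in the dKO too, 24 in 2 to 7 libraries and 18 in 1.

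**Figure D1:**
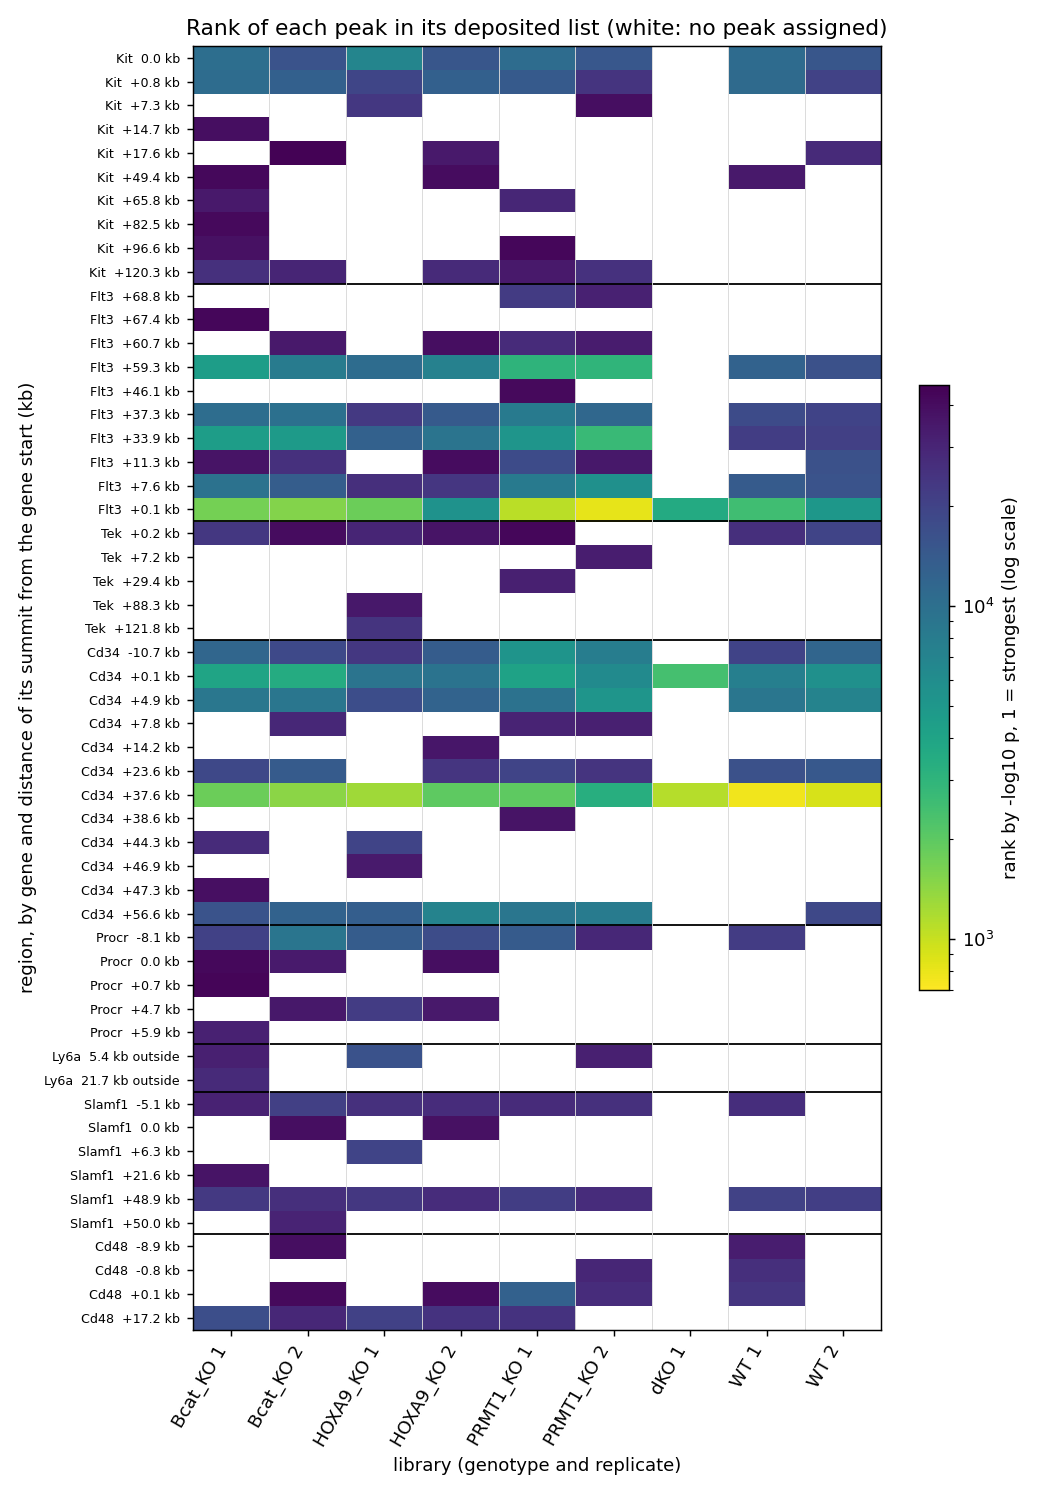
Rank of every peak of the 8 genes within the deposited list of its library, by region (rows, with the distance of the summit from the gene start in kb) and library (columns); yellow is the strongest rank, dark violet the weakest, on a log scale, and white means that no peak was assigned. The start of Flt3 and the Cd34 region 37.6 kb from the start are the strongest rows, and the dKO column holds 3 peaks.

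No difference between groups in the number of peaks per gene passed the test. The deposited lists held 29 and 26 peaks at the 8 genes in PRMT1_KO, 34 and 29 in Bcat_KO, 25 and 28 in HOXA9_KO, 3 in the dKO, and 20 and 17 in WT. With every paired list shortened to its 28325 strongest peaks, the length of the shortest one, the numbers were 21 and 17 in PRMT1_KO, 20 and 17 in Bcat_KO, 22 and 18 in HOXA9_KO, and 18 and 17 in WT. In these lists Cd34 averaged 6 peaks a library, Flt3 5.63, Kit 2.63, Slamf1 1.88, Cd48 1, Procr 0.875, Tek 0.5 and Ly6a 0.25. Tek had 1 peak in each WT library and none in either PRMT1_KO library. An exact permutation test over the 105 divisions of the libraries into 4 pairs gave p between 0.714 and 1 for the 8 genes, and 1 for each after Benjamini-Hochberg adjustment over 15792 genes. The smallest p it allows is 0.00952, and 0% of all genes passed after adjustment and 0.811% before it. With that smallest p, a gene could pass the adjustment only together with very many others, whatever its own counts. The adjusted result therefore says little about the 8 genes.

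**Figure D2:**
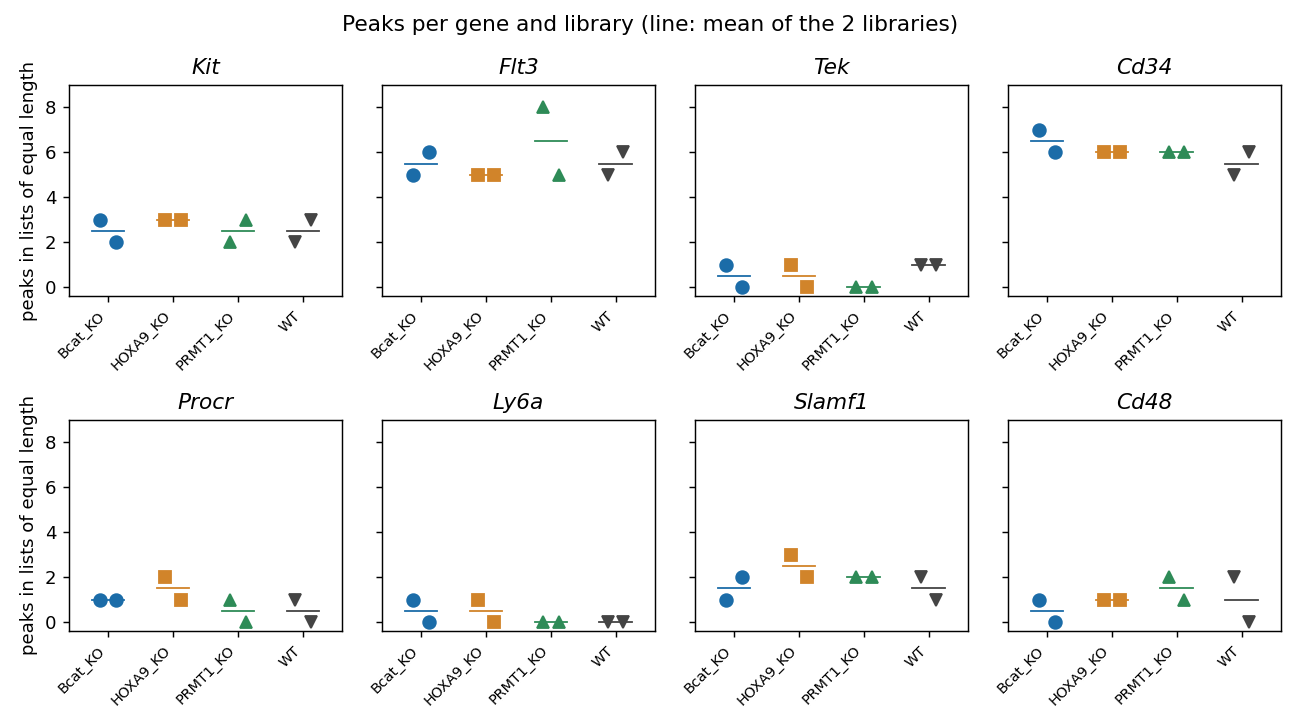
Number of peaks at each gene (vertical axis) in the 8 paired libraries after the lists were shortened to equal length, by genotype (horizontal axis); points are libraries and the line is the mean of both. Cd34 and Flt3 hold 5 to 8 peaks in every library, Ly6a and Tek 0 or 1, and at Tek both PRMT1_KO libraries have 0 and both WT libraries 1.

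Most of the rank differences that passed the test given below were at Flt3. The gene spans chr5:147330741-147400489 on the minus strand and held 55 peaks in 10 regions, all at the start or inside the gene. At 5 of these regions every paired library had a peak, and at all 5 both PRMT1_KO libraries, and likewise both Bcat_KO libraries, were ranked above both WT libraries. Ranks count from 1 for the strongest peak of a list by −log10 p, so a lower number is a stronger peak.

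The region 33.9 kb into Flt3 (chr5:147366138-147366806) ranked 5171 and 2679 in PRMT1_KO, 4479 and 4694 in Bcat_KO, 12519 and 9197 in HOXA9_KO, and 21503 and 20809 in WT. Every mutant library was ahead of both WT libraries, HOXA9_KO was behind the other mutants, and Bcat_KO and PRMT1_KO overlapped. The summits held 62 and 67 reads in PRMT1_KO, 49 and 50 in Bcat_KO, 26 and 33 in HOXA9_KO, and 15 and 11 in WT. The authors' fold enrichment there, which is not normalized between libraries, averaged 12.4 ± 2.33 in PRMT1_KO, 11.8 ± 0.553 in Bcat_KO, 8.91 ± 1.34 in HOXA9_KO and 4.76 ± 0.0353 in WT (SD, n = 2 each).

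The region 59.3 kb into the gene (chr5:147340688-147341608) ranked 3023 and 2989 in PRMT1_KO, 4443 and 8015 in Bcat_KO, 10454 and 7337 in HOXA9_KO, and 12377 and 16310 in WT. Again WT was last without overlap and PRMT1_KO first, while Bcat_KO and HOXA9_KO overlapped. Fold enrichment averaged 14.6 ± 0.0725 in PRMT1_KO and 6.26 ± 0.871 in WT (SD, n = 2 each).

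The start-site region of Flt3 (chr5:147399961-147400708), which reaches into the promoter sequence shown above, ranked 1072 and 815 in PRMT1_KO, 1674 and 1511 in Bcat_KO, 1781 and 5446 in HOXA9_KO, 3570 in the shorter dKO list, and 2527 and 5046 in WT. As merged over the libraries, it covers the TCF/LEF match and ends short of the E-box match. Its ranks were strongest in PRMT1_KO, and the libraries of HOXA9_KO and WT overlapped.

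The last pair of shared regions differed in where HOXA9_KO stood. At 7.57 kb into the gene the ranks were 8138 and 5648 in PRMT1_KO, 9480 and 13332 in Bcat_KO, 25996 and 23750 in HOXA9_KO, and 13913 and 15720 in WT, so that HOXA9_KO was last without overlap. At 37.3 kb they were 8174 and 11398 in PRMT1_KO, 10274 and 9846 in Bcat_KO, 23035 and 14087 in HOXA9_KO, and 17613 and 19981 in WT, where the HOXA9_KO libraries lay on either side of WT. The other 5 Flt3 regions had peaks in 1 to 6 libraries, none ranked ahead of 16389, and the region 68.8 kb into the gene had a peak in both PRMT1_KO libraries and no other.

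**Figure D3:**
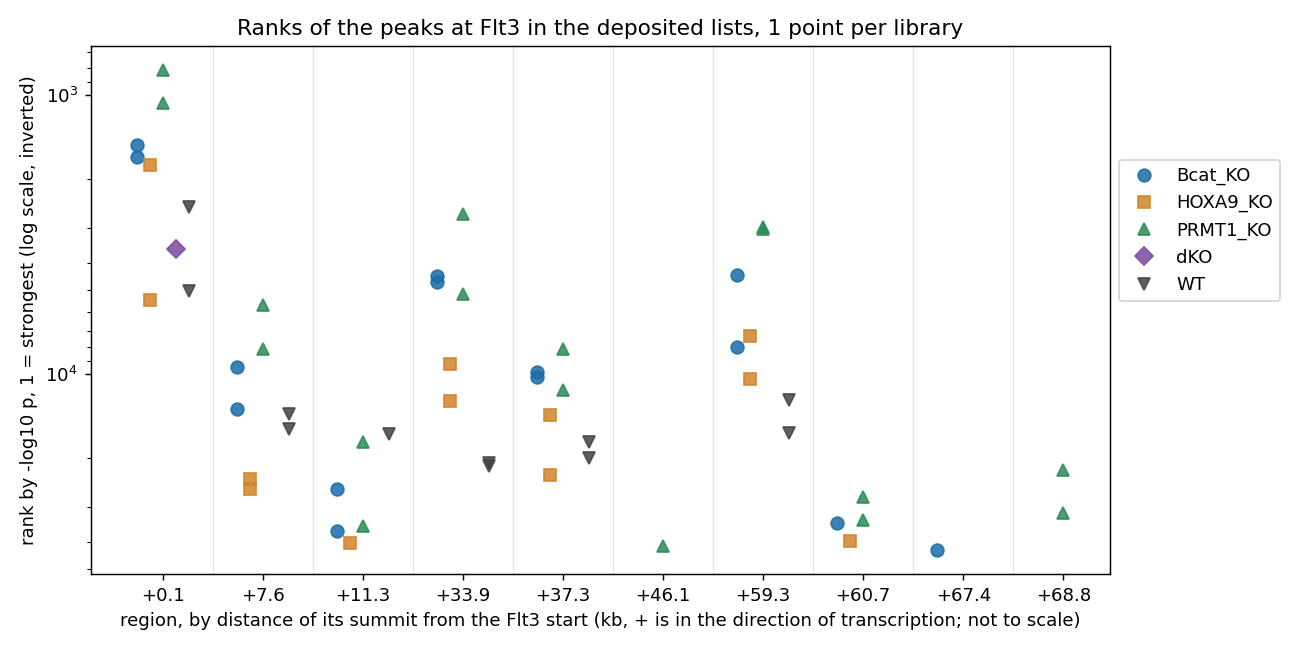
Rank by −log10 p in the deposited lists (vertical axis, log scale, strongest at the top) of each Flt3 region, placed by distance from the start in kb; each point is a library and its shape and colour give the genotype. At 33.9 and 59.3 kb both WT libraries lie below all 6 mutant libraries, and at 7.57 kb both HOXA9_KO libraries lie lowest.

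The rank differences were tested with limma on −log2 rank over the 15951 regions found in all 8 shortened lists, with Benjamini-Hochberg adjustment over all of them, and 12 regions of the 8 genes were among these: 5 of Flt3, 4 of Cd34, 2 of Kit and 1 of Slamf1, with none of Tek, Procr, Ly6a or Cd48. A positive difference means that the first-named group was ranked stronger. In PRMT1_KO against WT, 4 of 12 passed an adjusted p of 0.05, 3 stronger and 1 weaker, where 1.3% of all regions passed, 0.909% stronger and 0.389% weaker. The 3 stronger ones were Flt3 regions: 33.9 kb into the gene the difference was 2.51 (SE 0.38, limma adjusted p = 0.00187), at 59.3 kb 2.24 (SE 0.38, limma adjusted p = 0.00370) and at the start 1.93 (SE 0.45, limma adjusted p = 0.0353). Put as ratios, the rank numbers in WT were 5.68, 4.73 and 3.82 times those in PRMT1_KO. The call at the start was lost in most of the fits without 1 library, those without either Bcat_KO library among them. In these fits the difference at the start ran from 1.43 to 2.43. All 5 Flt3 regions were ranked stronger in both PRMT1_KO libraries than in either WT library, as were 22.3% of all regions, and their median difference was 1.93, against -0.04 over all regions. Without PRMT1_KO replicate 2, none of the 12 passed, with an adjusted p of 0.0530 at 33.9 and 59.3 kb; 2 of 12 passed without PRMT1_KO replicate 1, 2 without WT replicate 1 and 1 without WT replicate 2. Ranking by fold in place of p, 0 of 12 passed, where only 4 of 15700 regions over the genome did. The Flt3 differences kept their sign at 2.12 (33.9 kb), 2.37 (59.3 kb) and 0.72 (start). With regions of at least 2 lists fitted and missing peaks ranked last, 0 of 22 passed, where only 2 of 36181 regions over the genome did.

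In Bcat_KO against WT, 1 of 12 regions passed, where 3.43% of all regions did and 2.13% in the stronger direction. This was again the region 33.9 kb into Flt3, with a difference of 2.21 (SE 0.38, limma adjusted p = 0.00349), and it passed without each of the 8 libraries in turn. All 5 Flt3 regions were ranked stronger in both Bcat_KO libraries than in either WT library, as were 23% of all regions, with a median difference of 1.17. Ranked by fold, the difference at 33.9 kb was 1.93 and its limma adjusted p 0.162, and with missing peaks ranked last that p was 0.0634. Over the genome, 7 of 15700 regions passed by fold and 2 of 36181 with missing peaks ranked last. In HOXA9_KO against WT, 0 of 12 regions passed limma's adjusted p of 0.05, where 5.03% of all regions passed, and 4 had an unadjusted p under 0.05, where 21% of all regions did. The Flt3 region 33.9 kb into the gene had a difference of 0.98 there (95% interval 0.20 to 1.76, limma adjusted p = 0.134), and the median over the 5 Flt3 regions was 0.20.

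Between the mutants, Flt3 set HOXA9_KO and PRMT1_KO apart. In HOXA9_KO against PRMT1_KO, 5 of 12 regions passed, all weaker in HOXA9_KO, where 2.9% of all regions passed and 1.93% in that direction. The 4 Flt3 regions among them were those at 7.57 kb, with a difference of -1.87 (SE 0.36, limma adjusted p = 0.00800), at the start (-1.74, limma adjusted p = 0.0405), at 59.3 kb (-1.54, limma adjusted p = 0.0301) and at 33.9 kb (-1.53, limma adjusted p = 0.0315). At all 5 Flt3 regions both HOXA9_KO libraries were behind both PRMT1_KO libraries, as at 24.3% of all regions. The count of 5 was 1 without HOXA9_KO replicate 1, 0 without HOXA9_KO replicate 2, 2 without PRMT1_KO replicate 1, 0 without PRMT1_KO replicate 2, and 3 without either Bcat_KO library; ranked by fold it was 0, and with missing peaks ranked last 1. Over the genome, 0 of 15700 regions passed by fold and 323 of 36181 with missing peaks ranked last. In Bcat_KO against HOXA9_KO, limma called 0 of 12, where 0.282% of all regions passed, and 5 had an unadjusted p under 0.05, where 10.7% of all regions did. In Bcat_KO against PRMT1_KO it called 0 of 12, where 0.0439% of all regions passed, and 2 had an unadjusted p under 0.05, where 8.87% of all regions did. The comparisons with WT share the WT libraries, and those between mutants share libraries with them.

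By mean log2 rank, the groups stood in the order PRMT1_KO, Bcat_KO, HOXA9_KO and WT at the Flt3 start and at 33.9, 37.3 and 59.3 kb. This was also their order by depth. At 7.57 kb HOXA9_KO came after WT. At the Cd34 region 37.6 kb from its start, described next, the order was the reverse of that by depth. Mean log2 rank was 9.70 in WT, 10.63 in HOXA9_KO, 10.65 in Bcat_KO and 11.33 in PRMT1_KO, so PRMT1_KO was last and WT first. The part of depth was not tested at either gene. In bulk libraries a larger share of cells with open Flt3 and more opening per cell cannot be told apart.

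**Figure D4:**
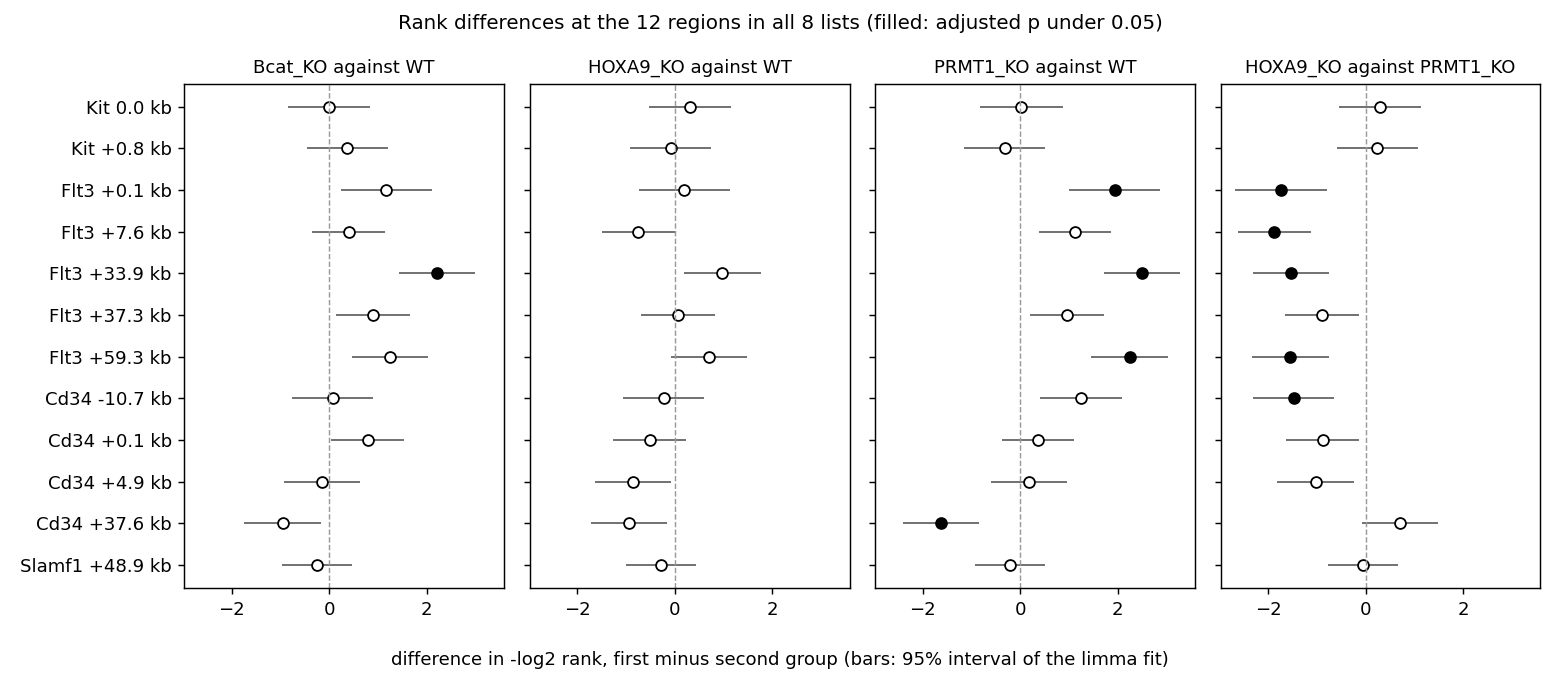
Difference in −log2 rank, first-named minus second-named group (horizontal axis), for the 12 regions of these genes in all 8 shortened lists; bars are 95% intervals of the limma fit and filled points passed an adjusted p of 0.05. Flt3 regions lie right of 0 in PRMT1_KO against WT (0.96 to 2.51) and left of 0 in HOXA9_KO against PRMT1_KO, and Kit and Slamf1 intervals cross 0 in each panel.

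Cd34 spans chr1:194938821-194961292 on the plus strand and held 57 peaks in 12 regions, the most of the 8 genes. Its strongest region was not the promoter but lay 37.6 kb from the start, 15.1 kb beyond the end of the gene (chr1:194976069-194977362). It ranked 1971 and 3344 in PRMT1_KO, 1806 and 1438 in Bcat_KO, 1272 and 1963 in HOXA9_KO, 1121 in the shorter dKO list, and 764 and 900 in WT. Both WT libraries were ahead of all 6 libraries of the single mutants. Among these, Bcat_KO and HOXA9_KO overlapped, and PRMT1_KO was last. Rank 764 was the best rank of any peak of the 8 genes.

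In PRMT1_KO against WT the difference at this region was -1.63 (SE 0.38, limma adjusted p = 0.0334), the 1 weaker region of that comparison. The summits held 89 and 63 reads in PRMT1_KO, the deeper group, and 102 and 76 in WT. Fold enrichment averaged 13.5 ± 1.13 in PRMT1_KO and 13.8 ± 0.244 in WT (SD, n = 2 each), which differed by less than the spread in PRMT1_KO. The call was lost without PRMT1_KO replicate 1 (limma adjusted p = 0.0651), PRMT1_KO replicate 2 (0.277), WT replicate 1 (0.195) or WT replicate 2 (0.149), and ranked by fold the difference was -1.41 (limma adjusted p = 0.341). The call was also lost with lists as deposited (limma adjusted p = 0.0676), with missing peaks ranked last (0.112) and with a trend in the spread (0.0582). At the same region the differences were -0.96 in Bcat_KO against WT (limma adjusted p = 0.157) and -0.93 in HOXA9_KO against WT (limma adjusted p = 0.156), which did not pass.

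The start-site region of Cd34 (chr1:194938511-194939297), which covers the promoter sequence shown above, ranked 4101 and 6209 in PRMT1_KO, 4022 and 3518 in Bcat_KO, 9264 and 9326 in HOXA9_KO, 2392 in the shorter dKO list, and 7519 and 5617 in WT. Bcat_KO and HOXA9_KO lay on opposite sides of WT without overlap, 1.20 apart on the log2 rank scale at their nearest libraries, the widest gap at this gene. Their difference was 1.31 (SE 0.36), which did not pass (limma adjusted p = 0.129).

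Another Cd34 region, 10.7 kb before the start (chr1:194927830-194928368), ranked 5251 and 7828 in PRMT1_KO, 11488 and 18272 in Bcat_KO, 23420 and 13540 in HOXA9_KO, and 19693 and 11764 in WT. PRMT1_KO was ahead of every other library, and the other 3 groups overlapped. It was the fifth region called in HOXA9_KO against PRMT1_KO, with a difference of -1.47 (SE 0.40, limma adjusted p = 0.0495). That call was lost without any 1 of the 8 libraries (limma adjusted p from 0.0549 to 0.345). Against WT the difference in PRMT1_KO was 1.25 and did not pass (limma adjusted p = 0.119).

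A region 34.1 kb beyond the end of Cd34 had a peak at rank 8921 and 8002 in PRMT1_KO, 15647 and 12303 in Bcat_KO, 13147 and 7099 in HOXA9_KO. WT had a peak there in replicate 2, at 18493, and none in replicate 1. It was therefore outside the fit of shared regions. Opened regions were those within the top 14162 ranks in both mutant libraries but missing from both shortened WT lists, and closed regions the converse. Of the 31 regions of the 8 genes in the shortened lists, none was opened or closed in PRMT1_KO (0.188% and 0.0704% of all regions), in Bcat_KO (0.269% and 0.0832%) or in HOXA9_KO (0.446% and 0.16%). Without WT replicate 2, this Cd34 region was opened in HOXA9_KO and in PRMT1_KO. With only peaks of −log10 q of at least 5, the Flt3 region 33.9 kb into the gene was opened in Bcat_KO and in PRMT1_KO. Both WT libraries held a peak there, at −log10 q of 5.67 (replicate 1) and 4.48 (replicate 2). It counted as missing because replicate 1 ranked it 21503, past the 19877 peaks kept, and replicate 2 was under that q. For neither setting is the share of all regions given here.

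**Figure D5:**
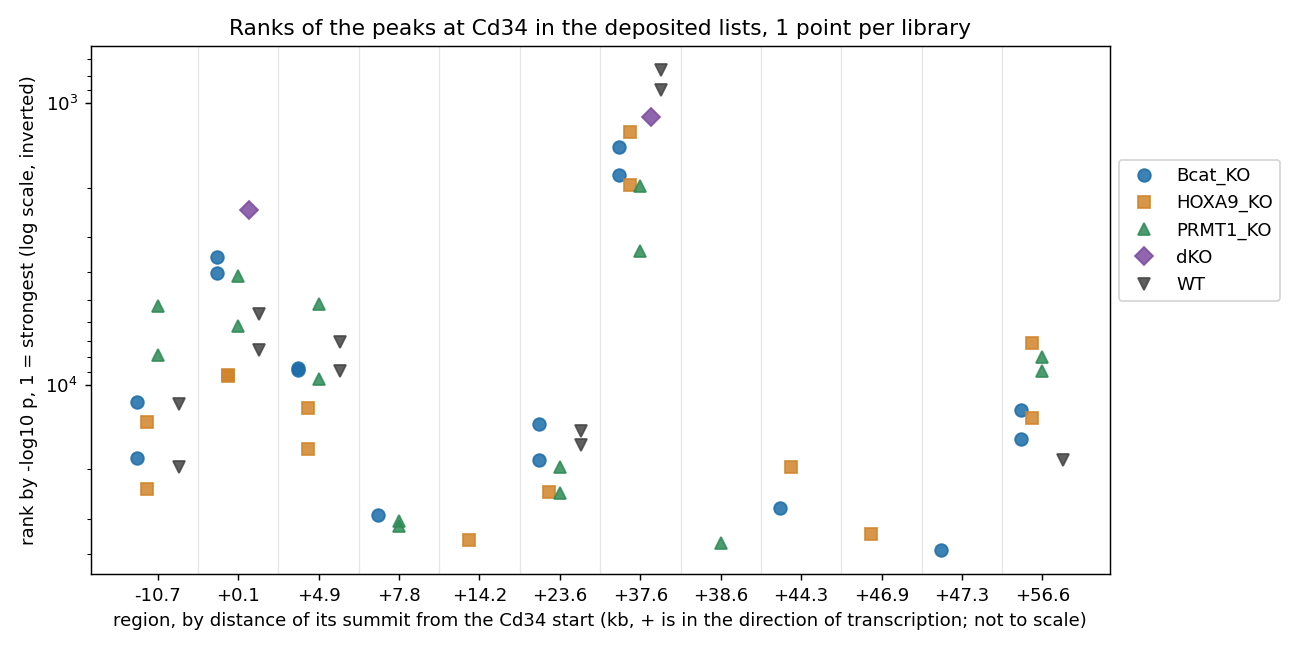
Rank by −log10 p in the deposited lists (vertical axis, log scale, strongest at the top) of each Cd34 region, placed by distance from the start in kb; each point is a library and its shape and colour give the genotype. At 37.6 kb WT ranks 764 and 900, ahead of all other libraries, and at the start HOXA9_KO ranks 9264 and 9326, behind all other libraries.

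Kit, the other antigen that defines the sort, spans chr5:75574987-75656722 on the plus strand and had 35 peaks in 10 regions. The region at its first base (chr5:75574517-75575394), which covers the promoter sequence shown above, ranked 10456 and 14880 in PRMT1_KO, 10186 and 15825 in Bcat_KO, 6874 and 15073 in HOXA9_KO, and 10701 and 15016 in WT. The 4 groups overlapped, and the 2 libraries of each group were further apart than the group means. Intervals of the difference from WT ran from -0.82 to 0.87 in PRMT1_KO, from -0.85 to 0.84 in Bcat_KO and from -0.53 to 1.16 in HOXA9_KO (95%, limma). Differences inside these intervals cannot be told from 0 here, and equal ranks are not shown by them.

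A second Kit region, 0.843 kb past the start, ranked 14047 and 24424 in PRMT1_KO, 10426 and 12675 in Bcat_KO, 19328 and 12803 in HOXA9_KO, and 10910 and 20292 in WT, with overlap of each mutant with WT. The remaining 8 Kit regions had peaks in 1 to 5 libraries. One of them, 38.6 kb beyond the end of the gene, had peaks in both Bcat_KO libraries, HOXA9_KO replicate 2 and both PRMT1_KO libraries, at ranks from 25382 to 34791, and none in WT.

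Tek had a weak start-site peak and little else. It ranked 42814 in PRMT1_KO replicate 1, 23373 and 40074 in Bcat_KO, 29599 and 37023 in HOXA9_KO, and 26153 and 19350 in WT, on 8 to 13 reads. PRMT1_KO replicate 2 and the dKO had no peak there. The other 4 Tek regions had a peak in 1 library each, 2 of them in HOXA9_KO replicate 1.

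Procr was marked by a region 8.04 kb before the gene (chr2:155742856-155743578) more than by its start. That region ranked 13826 and 28963 in PRMT1_KO, 20518 and 9108 in Bcat_KO, 13692 and 17252 in HOXA9_KO. WT replicate 1 had it at 21971, and WT replicate 2 had no peak there. The start had a peak in both Bcat_KO libraries and HOXA9_KO replicate 2, at ranks from 33965 to 41873, and Bcat_KO replicate 1 had a further peak 0.699 kb past the start at rank 43181. Libraries of 1 group differed here by as much as the groups did.

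Ly6a had 4 peaks in 2 regions, both outside the gene (chr15:74994877-74998031). A region 5.44 kb away had peaks assigned to Ly6a in Bcat_KO replicate 1 (rank 32021), HOXA9_KO replicate 1 (16009) and PRMT1_KO replicate 2 (31589). The merged region held a peak in all 8 shortened lists, WT included, but most of its peaks were nearer to another protein-coding gene. It was therefore not fitted as a Ly6a region. The second, 21.7 kb away, had 1 peak in Bcat_KO replicate 1. No promoter sequence of Ly6a was at hand.

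The pair of SLAM family receptors, neighbours on chromosome 1, differed in where their peaks lay. Slamf1 had start-site peaks in Bcat_KO replicate 2 (rank 39076) and HOXA9_KO replicate 2 (38071) only, on 8 reads each. Its most regular region lay 14.8 kb beyond the end of the gene and ranked 21350 and 27151 in PRMT1_KO, 22974 and 26343 in Bcat_KO, 23273 and 27106 in HOXA9_KO, and 20272 and 21245 in WT. WT was ahead of every mutant library by a narrow margin, and the differences of -0.21 in PRMT1_KO, -0.25 in Bcat_KO and -0.28 in HOXA9_KO did not pass (limma adjusted p from 0.706 to 0.805). A region 5.10 kb before Slamf1 had a peak in every paired library but WT replicate 2.

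Cd48 had start-site peaks in Bcat_KO replicate 2 (rank 41521), HOXA9_KO replicate 2 (39864), both PRMT1_KO libraries (12586 and 26922) and WT replicate 1 (23968). The PRMT1_KO replicate 1 peak stood out, with 27 reads, against 13 in PRMT1_KO replicate 2 and 11 in WT replicate 1. A region 17.2 kb into the gene had a peak in both Bcat_KO libraries, both HOXA9_KO libraries and PRMT1_KO replicate 1, at ranks from 16837 to 29077, and in neither WT library.

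The dKO library held 3 peaks at the 8 genes: the start of Flt3, the start of Cd34 and the Cd34 region 37.6 kb from the start, the 3 regions present in all 9 libraries. With all 9 lists shortened to the 10639 peaks of the dKO, it had a peak at 3 of 13 regions of these genes that the paired libraries held (23.1%, 95% Wilson interval 8.18 to 50.3%), against 48.1% of 16055 regions over the genome. The interval covers counting error only and includes the genome value. The 3 regions were those that all 8 paired lists kept at that length, and the others were kept by 1 to 6 of them. The genome share was not matched for the number of lists that held a region, so a deficit at these genes is not shown. The missing regions included both Kit start-site regions, which 3 and 1 of the paired libraries kept at that length. Its peaks carry another run name than the other lists, so run and genotype cannot be told apart for the dKO.

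Of 28 other genes for surface proteins of stem and progenitor cells, 16 had at least 1 region in the fit, with 29 regions in all. In Bcat_KO against WT, 0 were stronger and 1 weaker, where 3.43% of all regions passed. In HOXA9_KO against WT, 1 was stronger and 1 weaker, where 5.03% of all regions passed. Counts in both comparisons were near these shares. None passed in PRMT1_KO against WT (1.3% of all regions). Between mutants none passed either (0.282% of all regions in Bcat_KO against HOXA9_KO, 0.0439% in Bcat_KO against PRMT1_KO and 2.9% in HOXA9_KO against PRMT1_KO). The weaker region was at Fcgr3, the low-affinity Fc receptor that marks myeloid progenitors, and ranked 4611 and 5371 in PRMT1_KO, 6900 and 8261 in Bcat_KO, 9161 and 7398 in HOXA9_KO, and 1986 and 1880 in WT. Its differences were -1.97 in Bcat_KO against WT (limma adjusted p = 0.00418) and -2.09 in HOXA9_KO against WT (limma adjusted p = 0.00192). The stronger region was at Jam3, a junctional adhesion molecule, and ranked 5138 and 4398 in HOXA9_KO and 13373 and 15778 in WT, with a difference of 1.61 in HOXA9_KO against WT (limma adjusted p = 0.0111).

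The gene whose start-site ranks were nearest to those of each of these genes over the 8 paired libraries, by Euclidean distance in log2 rank, was Tcf7l1 for the Kit start (0.608), Sec62 for the Flt3 start (1.72) and Numa1 for the Cd34 start (0.735), among 8007 or 8008 candidates. Flt3 had the most distant nearest gene of the 3. For Slamf1 the region beyond the gene was used in place of the start, and H2-T-ps was nearest (0.507).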

How the data were processed

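ATAC-seq was measured in 9 LSK libraries. Per the submitters' processing notes, the authors used Bowtie2 2.4.2, SAMtools 1.14, Picard 2.27.4, MACS2 and the GRCm38/mm10 build. The deposited lists, 1 per library, hold for each peak a summit fold enrichment by the authors (a ratio over local background), −log10 p and −log10 q values, and a score. These values are not normalized between libraries; peaks were ranked within a list by −log10 p, and fold was used as a description. Reads at a summit were solved from fold and p, and were whole within 0.01 for 100% of peaks after rounding.

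Genes and starts came from RefSeq (GRCm38.p6). The 8 paired lists were shortened to 28325 peaks. limma 3.58.1 (R 4.3.3) was fitted to −log2 rank of regions in all 8 lists, without a replicate block, with 6 comparisons and a threshold of 0.05. Other steps used Python 3.11.15, pandas 2.3.3, numpy 2.4.6 and SciPy 1.17.1. The fit was tested on simulated data. In simulated lists with 200 of 15951 regions shifted by 2 on the log2 rank scale in PRMT1_KO, the fit recovered 40.5% of them. Of its calls, 3.57% were false. A difference of that size can therefore fail to pass. Named regions of each gene were its start-site region, its best-ranked region, each region called in a comparison, and the region with the widest gap between groups; others were named after their values were seen. Alternatives were other list lengths, ranking by fold, a stricter q, missing peaks ranked last, merging by summits, a replicate block, a trend in the spread and leaving out each library. The genes and lists were chosen with earlier results of these data known. With 2 libraries a group, precision is low. A gene of the lineage marker list is not reported here. Sequence around summits away from starts was not analysed here.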

Additional observations from a re-analysis of the deposited data

How the results depend on the processing

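The number of the 12 tested regions that passed limma's adjusted p depended on the ranking. For Bcat_KO against WT, 1 in the reported fit, it was 5 with lists as deposited (rank over list length), 0 ranked by fold, 0 with −log10 q of at least 5, 0 with regions in at least 2 lists and missing peaks ranked last, 2 with a trend in the spread (a setting chosen after seeing the data), and 1 without each library in turn. For HOXA9_KO against WT, 0 in the reported fit, it was 1 with lists as deposited and 0 without each library. For PRMT1_KO against WT, 4 in the reported fit, it was 0 by fold, 0 with missing peaks ranked last and 0 to 4 without 1 library. For HOXA9_KO against PRMT1_KO, 5 in the reported fit, it was 0 by fold, 1 at the stricter q, 1 with missing peaks ranked last and 0 to 4 without 1 library. Over all regions, ranking by fold called 7 of 15700 in Bcat_KO against WT, 4 in PRMT1_KO against WT and 0 in HOXA9_KO against PRMT1_KO. With missing peaks ranked last these numbers were 2, 2 and 323 of 36181. With lists as deposited, 2031 of 19172 regions were called in Bcat_KO, 1494 in HOXA9_KO and 1170 in PRMT1_KO against WT. The 1 of 12 called there in HOXA9_KO against WT was near the genome share. At the stricter q, 355 of 11963 regions were called in Bcat_KO against WT and 194 in HOXA9_KO against PRMT1_KO. With a trend in the spread, 716 of 15951 were called in Bcat_KO against WT. Why the counts depended on the ranking was not tested, except that the stricter q left 6 regions in the fit. Lists as deposited moved the median difference of all regions to 0.32 in PRMT1_KO, 0.39 in Bcat_KO and 0.27 in HOXA9_KO against WT in a fit of 19172 regions, and PRMT1_KO against WT then had 6 calls. These were the Flt3 regions in the fit and the Cd34 region 10.7 kb before the start. The Cd34 region 37.6 kb from the start was not among them. With missing peaks ranked last, the regions of PRMT1_KO against WT had limma adjusted p of 0.0874 (Flt3, 33.9 kb) to 0.190 (Flt3 start). Every region called in the reported fit kept its sign in each alternative that gave it a value. In most settings this was fixed in advance. The stricter q, missing peaks ranked last, merging by summits, the replicate block and the trend left these differences as in the reported fit. A sign could change only by fold, with lists as deposited or without a library.

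Regions opened or closed, 0 in each comparison, were 1 for Bcat_KO and 1 for PRMT1_KO at the stricter q, and 0 to 1 for HOXA9_KO and 0 to 1 for PRMT1_KO without 1 library. The dKO share was 5.66% with lists as deposited. No share over all regions is given here for these settings. No gene's peak number passed in any alternative, where the smallest p that the exact test allows again left little room to pass after adjustment.

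Differences from WT that did not pass changed sign at the Kit start (0.48 in Bcat_KO as deposited, -0.020 in PRMT1_KO by fold) and 0.843 kb past it (0.27 in HOXA9_KO and 0.092 in PRMT1_KO as deposited). Without 1 library they ran from -0.23 to 0.28 in PRMT1_KO, -0.32 to 0.32 in Bcat_KO and -0.25 to 0.88 in HOXA9_KO at the Kit start, from -0.76 to 0.13 in PRMT1_KO, -0.075 to 0.82 in Bcat_KO and -0.53 to 0.37 in HOXA9_KO at 0.843 kb past it, and from -0.61 to 1.00 in HOXA9_KO at the Flt3 start.

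Libraries with the same replicate number did not deviate together (correlations of 0.0046 to 0.0404), so the numbers do not pair them; with the replicate block the counts of these genes were 1, 0, 4, 0, 0 and 5 in the 6 comparisons, the same as without it. Over all regions, calls for PRMT1_KO against WT numbered 207 and ranged from 2 to 1170 over the other settings, and for HOXA9_KO against PRMT1_KO 462 and from 0 to 632. Regions weaker than the lists' threshold cannot be seen in the shallower libraries, WT and above all the dKO.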
